A study of Mus musculus with 18 samples.

Results

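The set described here holds 45 genes of the excitatory postsynapse, namely 21 glutamate receptor genes, 10 genes of auxiliary receptor subunits and 14 genes of scaffold proteins. They were chosen by name, and each was found by its Ensembl identifier and gene symbol among the 55153 genes of the RNA-seq table and among the 14348 Ribo-seq genes that had a value in every library. Cerebral cortices of mice at embryonic day 15.5 (E15.5), all labelled C57BL/6, were profiled in 3 groups. Ctrl was wild type, *F*-cKO was Fto(f/f, Emx1-cre) and *M*-cKO was Mettl3(f/f, Emx1-cre), with 3 RNA-seq and 3 Ribo-seq libraries per group and 18 libraries in all. Fto removes the m6A mark from RNA and Mettl3 is the catalytic subunit of the complex that writes it. The Cre recombinase of both knockouts was driven by *Emx1*, which is active in dorsal forebrain progenitors and their progeny, a lineage that does not give rise to cortical interneurons, vessels or microglia. By the study's methods the floxed lines were on a background of C57BL/6 mixed with another inbred strain, and the Cre line was on C57BL/6.

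Glutamate is the main fast excitatory transmitter of the cortex. AMPA, kainate and NMDA receptors are tetrameric ion channels, whereas metabotropic receptors signal through G proteins. Auxiliary subunits such as the TARPs, cornichons and Neto proteins control the trafficking and gating of the channels. Membrane-associated guanylate kinases (MAGUKs) hold receptors at the membrane, and SAPAP, Shank and Homer proteins link them to the deeper layers of the postsynaptic density. At E15.5 the cortex holds few mature synapses, and many of these genes are already transcribed in young neurons.

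RNA-seq libraries held between 18504094 and 22592406 counted reads, and Ribo-seq libraries between 10973699 and 35853227. *Fto* RNA was at 10.8, 11.2 and 8.37 FPKM (fragments per kilobase, scaled to library depth) in Ctrl and at 3.26, 7.56 and 2.43 FPKM in *F*-cKO, with replicate 2 the highest of *F*-cKO. *Fto* footprints were at 25.9, 22.0 and 17.6 RPKM in Ctrl and at 3.91, 2.11 and 4.04 RPKM in *F*-cKO, with replicate 2 the lowest (log2 fold change -2.68 ± 0.25 SE, edgeR adjusted *p* = 0.35). *Mettl3* RNA was at 5.84, 6.43 and 5.07 FPKM in Ctrl and at 8.61, 7.82 and 8.34 FPKM in *M*-cKO, a whole-gene value that also counts the exons left in place and so does not check the deletion. *Mettl3* footprints fell in *M*-cKO (log2 fold change -0.55 ± 0.10 SE, edgeR adjusted *p* = 0.0157). The dissected tissue carried the markers of cortex, with summed FPKM of 772 to 796 in Ctrl for 9 excitatory cortical genes. Changes below are log2 fold changes ± SE from edgeR's quasi-likelihood test on counts, with *p* adjusted by Benjamini-Hochberg over all genes tested and a threshold of 0.05. The bulk libraries cannot tell fewer cells of a type from less RNA per cell.

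In Ctrl, RNA of the members ranged from genes listed at 0 to the cornichon *Cnih2*, an AMPA receptor trafficking protein, at 246.5 ± 13.2 FPKM (SD, n = 3). The member with the highest Ctrl level in each role group was *Gria2* among AMPA subunits (31.7 ± 4.01), *Grik5* among kainate subunits (45.6 ± 2.25), *Grin2b* among NMDA subunits (8.83 ± 1.25) and *Grm2* among metabotropic receptors (6.80 ± 1.43 FPKM). *Neto2* led the kainate auxiliary subunits (30.6 ± 4.67), *Dlg4* the MAGUKs (24.6 ± 0.557), *Dlgap4* the SAPAPs (48.0 ± 2.35), *Shank1* the Shanks (22.6 ± 2.05) and *Homer3* the Homers (9.76 ± 0.693 FPKM). *Grid1* was the one delta receptor member, at 2.84 ± 0.414 FPKM. *Grin2a*, the NMDA subunit that replaces *Grin2b* as synapses mature, stood at only 0.278 ± 0.106 FPKM. The TARP genes *Cacng7* and *Cacng8* were listed at 0 in all Ctrl RNA-seq libraries and at 0 to 2 reads in the others, although their footprints ran from 144 to 392 and from 212 to 429 counts. They did not pass the filter on low counts in RNA-seq. The tests of RNA therefore cover 43 members, and those of footprints 45.

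In the RNA of either knockout, more of these genes were lower than higher relative to Ctrl. In *F*-cKO 18 of the 43 tested members fell (41.9%) and 3 rose (6.98%), compared with 9.57% and 11.5% of all 16944 genes tested. In *M*-cKO 19 members fell (44.2%) and 5 rose (11.6%), compared with 14.1% and 15.5% of 16968 genes. Members had a median change of -0.30 for *F*-cKO and -0.18 for *M*-cKO, beside -0.01 over all genes for each. Both comparisons use the same 3 Ctrl libraries. Of the 43 members, 12 fell in both, 2 rose in both, 6 fell in *F*-cKO alone, 7 fell in *M*-cKO alone, 1 rose in *F*-cKO alone, 3 rose in *M*-cKO alone and 12 passed in neither, and no member rose in one and fell in the other. The count that fell in *F*-cKO was 8 without *F*-cKO replicate 2 (18.6%, compared with 4.68% of all genes) and 6 without Ctrl replicate 3 (14.0%, compared with 3.23%), so the share over all genes dropped as well. In *M*-cKO it stayed between 16 and 20 when any 1 library was left out (37.2% to 46.5%, compared with at most 12.4% of all genes). The 3 members that rose in *F*-cKO became 1 without Ctrl replicate 3 (5.69% of all genes), and the 5 that rose in *M*-cKO became 2 without *M*-cKO replicate 1 (12.1% of all genes) or without Ctrl replicate 2 (14.5%).

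**Figure D1:**
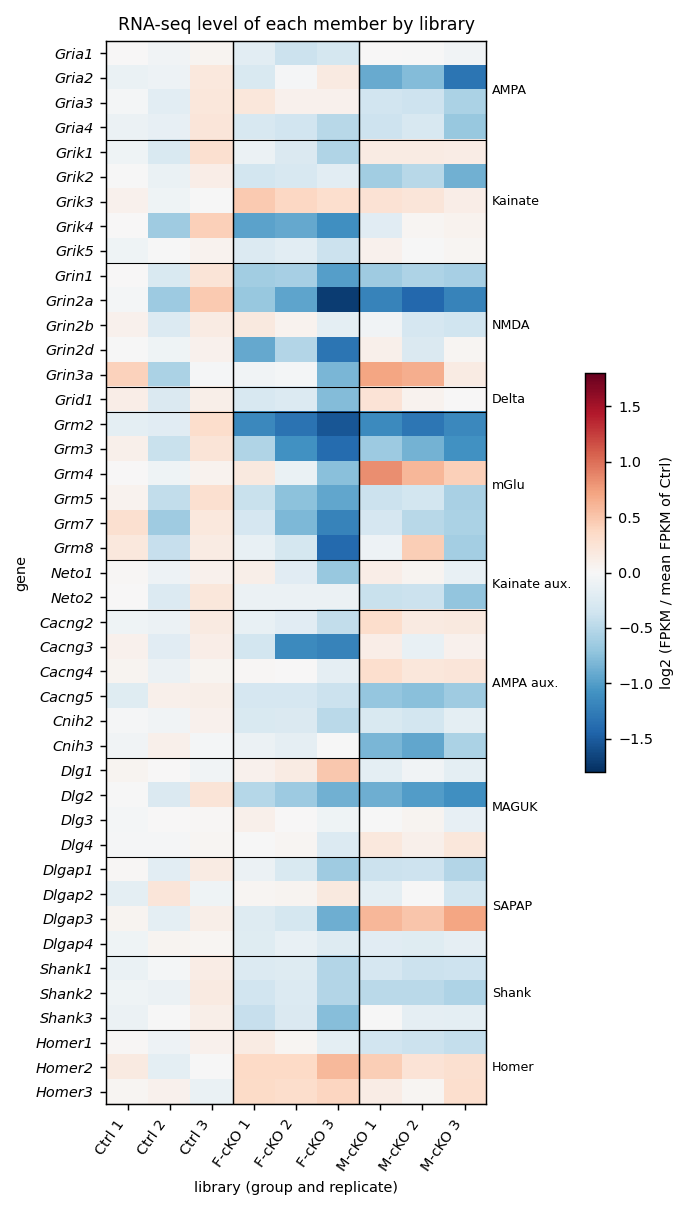
RNA-seq level of the 43 tested members (rows, by role) in each of the 9 libraries (columns), as log2 of FPKM over the mean FPKM of Ctrl. Blue cells are below the Ctrl mean: *Grm2* and *Dlg2* are blue in all 6 knockout libraries, *Gria2* and *Cnih3* are dark only in the 3 *M*-cKO libraries, and *Grik4* and *Grin2d* are blue in all 3 *F*-cKO libraries.

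Cell type markers moved as well. The libraries of Ctrl summed to between 1980 and 2280 FPKM over 12 pan-neuronal genes, those of *F*-cKO to between 1580 and 1880, and those of *M*-cKO to between 1830 and 1960. Of these genes, 7 fell and 2 rose in *F*-cKO, and 5 fell and 1 rose in *M*-cKO. The 9 markers of interneurons and the ganglionic eminence all rose in *M*-cKO, where their sum was 235 to 297 FPKM against 137 to 154 in Ctrl, and 3 rose in *F*-cKO, where it was 121 to 193. All 4 oligodendrocyte precursor markers fell in *F*-cKO (7.97 to 13.1 FPKM, Ctrl 15 to 33.0) and 1 of 4 in *M*-cKO (16.0 to 17.4). Excitatory neuron markers rose for 5 of 9 in *F*-cKO and 6 of 9 in *M*-cKO, where 2 fell, and intermediate progenitor markers for 5 and 3 of 5. Of 8 radial glia genes 4 rose and 2 fell in *F*-cKO, and 3 rose and 2 fell in *M*-cKO. Striatal genes rose for 3 and 4 of 8, with 0 and 2 lower, and their log2 changes ran from -0.13 to 1.82 and from -0.65 to 2.8. Of 5 meningeal genes, 2 fell in *F*-cKO and 0 passed in *M*-cKO. Lists of Cajal-Retzius cells, endothelium, microglia, erythroid cells and thalamus, of 3 or 4 tested genes each, had at most 2 called in a direction. No gene of these lists was at 0 in any group. Their part in the changes of the members was not tested.

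AMPA receptor subunits form the channels that carry most fast excitatory current. *Gria2* encodes the subunit that makes these channels impermeable to calcium. Its RNA was at 29.1, 29.7 and 36.4 FPKM in Ctrl, 26.2, 31.2 and 35.4 in *F*-cKO, and 16.9, 18.4 and 12.8 in *M*-cKO. All 3 *M*-cKO libraries lay below every other library, while Ctrl and *F*-cKO overlapped. *Gria2* fell by 1.00 on the log2 scale in *M*-cKO (SE 0.13, adjusted *p* = 0.000239) and differed by -0.05 ± 0.12 in *F*-cKO (adjusted *p* = 0.819). In the direct comparison it was lower in *M*-cKO than in *F*-cKO by -0.96 ± 0.14 (adjusted *p* = 0.00102), and this call held in all 11 alternative fits, as did the one against Ctrl. *Gria3* went the same way, from 4.56, 4.08 and 5.37 FPKM in Ctrl to 3.66, 3.59 and 3.16 in *M*-cKO, with 5.37, 4.92 and 4.91 in *F*-cKO. The *M*-cKO libraries were again apart from both other groups (-0.44 ± 0.10 against Ctrl, -0.55 ± 0.08 against *F*-cKO). *Gria1* showed the reverse. It was at 27.2, 25.7 and 28.0 FPKM in Ctrl, 23.5, 20.6 and 21.8 in *F*-cKO and 27.1, 26.8 and 25.8 in *M*-cKO, so only the *F*-cKO libraries stood below Ctrl (-0.31 ± 0.07, adjusted *p* = 0.0122), a call lost in 1 of 11 alternatives. *Gria4* fell in both (-0.38 ± 0.10 and -0.45 ± 0.12), with calls lost in 4 and 2 of 11 alternatives.

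*Gria2* lies on chromosome 3, 80681450 to 80804227 (GRCm38.p6), on the minus strand and overlaps no other annotated gene. RefSeq promoter windows of that build, 250 bases before to 50 after the annotated start, exist for 31 of the 45 members. They were searched on both strands for letters of RE1, the element bound by the neuronal repressor REST. The motifs were picked after matches in these windows had been seen. The letters AGCACC and GGACAG with any 2 bases between them occurred in 1 of the 31 members, *Gria2*, and in 0.0592% of 27025 genes with a window. TTCAGCACC also occurred in 1 member, *Grm2*, and in 0.433% of all genes. GGACAGC alone was in 3 members, *Gria2*, *Grm2* and *Homer2* (9.68%, compared with 7.59% of all). The stretches around both matches are shown because *Gria2* fell in *M*-cKO alone and *Grm2* in both knockouts. Capitals mark both parts of the element, which read on the opposite strand in *Gria2* with 2 bases between them. In *Grm2* they were 7 bases apart, so that the full pattern was not met.
Gria2, chr3:80802984-80803013, minus strand, match 170 to 157 bases before the start at 80802835: ccaaagcgCTGTCCgcGGTGCTaaaatcga
Grm2, chr9:106656309-106656359, minus strand, match 242 to 220 bases before the start at 106656109: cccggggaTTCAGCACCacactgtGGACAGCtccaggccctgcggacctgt
The start of the *Gria2* window lies 1392 bases inside the outermost annotated end of the locus, so its stretch is within the annotated gene, while that of *Grm2* is the outer end. The match is a description of letters, and no binding was measured. The GC box GGGCGG was found in 20 of the 31 member windows (64.5%, 38.2% of all genes), the TATA letters TATAAA in 3 (9.68%, 15.7% of all), the E box CACGTG in 4 (12.9%, 8.09% of all) and the cAMP response element TGACGTCA in 0 (2.03% of all).

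Kainate receptor subunits split between the knockouts. *Grik4*, one of the subunits with high affinity for kainate, was at 1.49, 0.949 and 2.00 FPKM in Ctrl, 0.758, 0.779 and 0.691 in *F*-cKO and 1.28, 1.51 and 1.54 in *M*-cKO. Every *F*-cKO library was below every other library, and Ctrl was the most scattered group. *Grik4* fell by 1.00 on the log2 scale in *F*-cKO (SE 0.24, adjusted *p* = 0.0198), a call lost without *F*-cKO replicate 2, Ctrl replicate 1 or Ctrl replicate 3. It was higher in *M*-cKO than in *F*-cKO by 0.95 ± 0.15 (adjusted *p* = 0.00183), and that call held in all 11 alternatives. *Grik5*, another subunit gene of the high-affinity type, was at 43.4, 45.6 and 47.8 FPKM in Ctrl, 38.4, 40.1 and 34.9 in *F*-cKO, and 48.3, 45.4 and 46.7 in *M*-cKO. The *F*-cKO libraries were the lowest here too (-0.28 ± 0.07, adjusted *p* = 0.0191), a call lost in 2 of 11 alternatives. *Grik5* overlaps the gene *Zfp574*, and whether the counting used strand is not stated.

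*Grik2*, a principal kainate subunit, showed a graded pattern, at 6.53, 6.04 and 7.17 FPKM in Ctrl, 5.22, 5.41 and 5.78 in *F*-cKO and 4.26, 4.64 and 3.63 in *M*-cKO. None of the groups overlapped, and all 3 pairwise differences passed (-0.28 ± 0.07 in *F*-cKO, -0.67 ± 0.10 in *M*-cKO, -0.40 ± 0.09 between them), that of *F*-cKO being lost in 5 of 11 alternatives and the others in 0. *Grik3* was the one subunit that rose in both. Its level was 18.4, 16.5 and 17.4 FPKM in Ctrl, 24.1, 22.5 and 21.5 in *F*-cKO and 20.9, 20.2 and 18.9 in *M*-cKO. Both knockouts lay above Ctrl throughout, by 0.37 ± 0.06 in *F*-cKO (adjusted *p* = 0.0058) and by 0.19 ± 0.06 in *M*-cKO (adjusted *p* = 0.0429), the latter lost in 5 of the 11 alternatives. *Grik1*, another principal kainate subunit, differed only between the knockouts (0.42 ± 0.13 higher in *M*-cKO), a call lost in 7 of 11 alternatives.

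NMDA receptors are calcium-permeable channels that need both glutamate and depolarisation to pass current. *Grin1*, the subunit that every NMDA receptor contains, was at 3.06, 2.54 and 3.58 FPKM in Ctrl, 1.99, 2.02 and 1.54 in *F*-cKO and 1.96, 2.08 and 2.02 in *M*-cKO. Neither knockout overlapped Ctrl. *Grin1* fell in both, by 0.74 (SE 0.14) and by 0.61 (SE 0.12), and both calls held in all 11 alternatives. *Grin1* overlaps *Lrrc26* and 1 other annotated gene. *Grin2a* also fell in both (-1.06 ± 0.33 and -1.27 ± 0.27) on low counts, with at most 130 reads in a Ctrl library, 64 in one of *F*-cKO and 49 in one of *M*-cKO. Its call was lost in 5 of 11 alternatives in *F*-cKO and in 0 in *M*-cKO. *Grin2b*, the subunit typical of embryonic cortex, was at 9.31, 7.42 and 9.76 FPKM in Ctrl, 9.95, 9.21 and 7.84 in *F*-cKO, and 8.43, 7.15 and 6.90 in *M*-cKO. The 3 groups overlapped, and no comparison passed. *Grin2d*, carried by interneurons among other cells, was at 2.28, 2.16 and 2.41 FPKM in Ctrl, 1.20, 1.58 and 0.918 in *F*-cKO and 2.44, 1.90 and 2.33 in *M*-cKO. It fell in *F*-cKO (-0.90 ± 0.18, adjusted *p* = 0.00898) and was higher in *M*-cKO than in *F*-cKO by 0.84 ± 0.18. *Grin3a*, a modulatory subunit, was at 1.71, 0.861 and 1.26 FPKM in Ctrl, 1.22, 1.25 and 0.724 in *F*-cKO, and 2.10, 2.01 and 1.42 in *M*-cKO. Each knockout overlapped Ctrl, and *M*-cKO lay above *F*-cKO by 0.79 ± 0.20 (adjusted *p* = 0.0165). *Grid1*, the delta receptor, stood at 3.09, 2.36 and 3.06 FPKM in Ctrl, 2.32, 2.39 and 1.65 in *F*-cKO, and 3.36, 2.95 and 2.84 in *M*-cKO. Its only call was the one between knockouts (0.52 ± 0.14).

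Of the 6 metabotropic receptors, 3 fell and 0 rose in *F*-cKO (50.0% lower, beside 9.57% over all tested genes). The same 3 fell in *M*-cKO and 1 rose (50.0% and 16.7%, beside 14.1% and 15.5%). *Grm2*, a presynaptic and perisynaptic receptor coupled to inhibitory G proteins, was at 6.03, 5.92 and 8.45 FPKM in Ctrl, 3.03, 2.72 and 2.33 in *F*-cKO and 3.07, 2.77 and 3.04 in *M*-cKO. The highest knockout library stood well below the lowest Ctrl library. *Grm2* fell by 1.35 on the log2 scale in *F*-cKO (SE 0.15, adjusted *p* = 0.00293) and by 1.21 in *M*-cKO (SE 0.14, adjusted *p* = 0.000121), and the difference between knockouts was 0.13 ± 0.12 (adjusted *p* = 0.457). Both calls held in all 11 alternatives. *Grm3*, its closest relative, fell by 0.97 (SE 0.24) and 0.86 (SE 0.19), and *Grm5*, which couples to calcium release, by 0.69 (SE 0.18) and 0.44 (SE 0.15). The calls in *F*-cKO were lost in 3 of 11 alternatives for *Grm3* and 4 for *Grm5*, and those in *M*-cKO in 0 and 7. *Grm4* went the other way in *M*-cKO, from 0.986, 0.931 and 1.02 FPKM in Ctrl to 1.75, 1.48 and 1.32, with 1.11, 0.900 and 0.581 in *F*-cKO. The *M*-cKO libraries exceeded all others (0.62 ± 0.15 against Ctrl, adjusted *p* = 0.00928). *Grm7* (-0.73 ± 0.28 and -0.47 ± 0.21) and *Grm8* (-0.53 ± 0.34 and -0.04 ± 0.29) passed in neither.

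**Figure D2:**
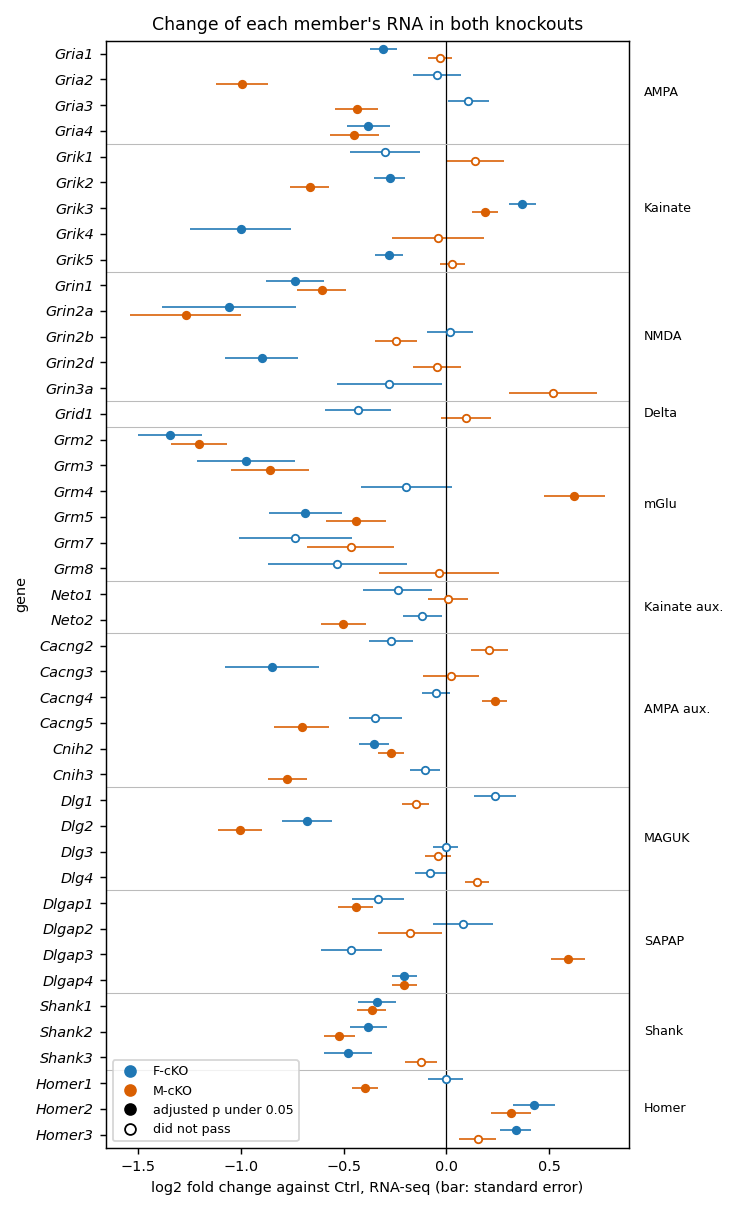
Log2 fold change of RNA against Ctrl for the 43 tested members, by role, in *F*-cKO (blue) and *M*-cKO (orange), with bars for the standard error and filled points for an adjusted p under 0.05. *Grm2*, *Grin2a* and *Dlg2* are filled and left of 0 in both, *Gria2* and *Cnih3* only in *M*-cKO, *Grik4*, *Grin2d* and *Cacng3* only in *F*-cKO, and *Grik3* and *Homer2* are filled and right of 0 in both.

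Of the 8 auxiliary subunits tested, 2 fell and 0 rose in *F*-cKO (all genes: 9.57% lower and 11.5% higher), and 4 fell and 1 rose in *M*-cKO (50.0% and 12.5%, compared with 14.1% and 15.5%). *Cnih3*, a cornichon that slows AMPA receptor closing, was at 20.4, 22.8 and 20.9 FPKM in Ctrl, 19.8, 19.0 and 21.3 in *F*-cKO and 12.1, 11.2 and 14.4 in *M*-cKO. Only *M*-cKO stood apart. *Cnih3* fell by 0.78 there (SE 0.10, adjusted *p* = 0.000195), and by 0.69 relative to *F*-cKO (SE 0.10, adjusted *p* = 0.000946). *Cnih2* was at 243.9, 234.9 and 260.8 FPKM in Ctrl, 203.1, 205.6 and 175.4 in *F*-cKO, and 203.7, 196.5 and 217.5 in *M*-cKO. Both knockouts lay below Ctrl, by 0.35 (SE 0.07) and 0.27 (SE 0.07), in a gene that overlaps *Yif1a*. *Neto2*, which speeds recovery of kainate receptors, was at 30.7, 25.9 and 35.2 FPKM in Ctrl, 28.5, 28.5 and 28.4 in *F*-cKO and 23.2, 23.3 and 18.8 in *M*-cKO. The *M*-cKO libraries were below all others (-0.50 ± 0.11, adjusted *p* = 0.00623), whereas *Neto1* passed nowhere.

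The TARPs, membrane proteins that carry AMPA receptors to the synapse, did not move together. *Cacng4*, the TARP with the highest level, was at 57.7, 52.3 and 58.0 FPKM in Ctrl, 57.1, 56.4 and 50.1 in *F*-cKO, and 69.0, 64.6 and 65.4 in *M*-cKO. Its *M*-cKO libraries were above all others (0.23 ± 0.06, adjusted *p* = 0.0146), a call lost in 2 of 11 alternatives. *Cacng2*, the gene of stargazin, was at 5.71, 5.61 and 6.78 FPKM in Ctrl, 5.50, 5.22 and 4.44 in *F*-cKO and 7.49, 6.75 and 6.79 in *M*-cKO, and passed only between the knockouts (0.47 ± 0.09, adjusted *p* = 0.00511). *Cacng3* fell in *F*-cKO alone (-0.85 ± 0.23), in a call that any of 4 left-out libraries removed. *Cacng5* fell in *M*-cKO (-0.70 ± 0.14).

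Among the scaffolds, *Dlg2* fell furthest in both knockouts. *Dlg2* encodes PSD-93, a MAGUK that anchors NMDA receptors, and spans 1973059 bases, the longest locus of the set. It was at 9.93, 8.31 and 11.7 FPKM in Ctrl, 6.97, 6.36 and 5.47 in *F*-cKO and 5.42, 4.95 and 4.63 in *M*-cKO. The 3 groups did not overlap. *Dlg2* fell by 0.68 in *F*-cKO (SE 0.12, adjusted *p* = 0.00653) and by 1.00 in *M*-cKO (SE 0.11, adjusted *p* = 9.84e-05), both in all 11 alternatives, while the lower level in *M*-cKO than in *F*-cKO (-0.33 ± 0.09) was lost in 5. The other MAGUKs did not follow. *Dlg4*, the gene of PSD-95, was at 24.3, 24.2 and 25.2 FPKM in Ctrl, 24.4, 25.2 and 20.7 in *F*-cKO, and 27.9, 26.1 and 28.2 in *M*-cKO. *M*-cKO lay above Ctrl without passing (0.15 ± 0.06, adjusted *p* = 0.0756). *Dlg3* stayed within 17.8 to 21.0 FPKM in all 9 libraries, and *Dlg1* was called only between the knockouts (-0.40 ± 0.10, lower in *M*-cKO).

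*Dlgap3*, a SAPAP that bridges MAGUKs and Shanks, was at 14.7, 12.6 and 15.3 FPKM in Ctrl, 12.1, 11.4 and 7.69 in *F*-cKO and 21.4, 20.0 and 23.1 in *M*-cKO. The groups did not overlap and lay on opposite sides of Ctrl. *Dlgap3* rose in *M*-cKO (0.59 ± 0.08, adjusted *p* = 0.000428), was at -0.46 ± 0.15 in *F*-cKO (adjusted *p* = 0.0509), and had the largest difference between knockouts of the 43 members (1.04 ± 0.14, adjusted *p* = 0.000608). *Dlgap1* fell in *M*-cKO (-0.44 ± 0.09), from 4.98, 4.31 and 5.43 to 3.74, 3.77 and 3.41 FPKM, with 4.57, 4.06 and 3.16 in *F*-cKO. *Dlgap4* was at 45.3, 49.6 and 49.1 FPKM in Ctrl, 41.2, 43.7 and 41.0 in *F*-cKO, and 41.5, 41.3 and 42.9 in *M*-cKO. Its falls of 0.20 in each knockout (SE 0.06) were lost in 6 and 4 of 11 alternatives.

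Shank proteins are the master scaffolds of the density and bind both SAPAPs and Homers. *Shank1* was at 20.8, 22.1 and 24.8 FPKM in Ctrl, 19.0, 19.3 and 15.7 in *F*-cKO and 18.3, 17.2 and 17.4 in *M*-cKO. Both knockouts were below every Ctrl library (-0.34 ± 0.09 and -0.36 ± 0.07). *Shank2*, at 9.21, 8.995 and 10.8 FPKM in Ctrl, was at 7.64, 8.13 and 6.71 in *F*-cKO and 6.89, 6.92 and 6.58 in *M*-cKO, and fell likewise (-0.38 ± 0.09 and -0.52 ± 0.08). *Shank3* fell in *F*-cKO alone (-0.48 ± 0.12). All 3 Shanks were thus lower in *F*-cKO and 2 of 3 in *M*-cKO, compared with 9.57% and 14.1% of all genes. In *F*-cKO these calls were lost in 5 of 11 alternatives for *Shank1*, 2 for *Shank2* and 1 for *Shank3*, all 3 of them without Ctrl replicate 3.

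Homers, which tie Shanks to metabotropic receptors, held the scaffold rises of *F*-cKO. *Homer2* was at 2.58, 2.04 and 2.29 FPKM in Ctrl, 2.95, 2.94 and 3.47 in *F*-cKO, and 3.12, 2.73 and 2.80 in *M*-cKO. Both knockouts lay above Ctrl (0.43 ± 0.10 and 0.32 ± 0.10), with calls lost in 2 and 3 of the 11 alternatives. *Homer3* was at 10, 10.3 and 8.98 FPKM in Ctrl, 12.4, 12.2 and 12.8 in *F*-cKO and 10.7, 9.99 and 12.1 in *M*-cKO, and rose in *F*-cKO (0.34 ± 0.08), a call lost without Ctrl replicate 3. *Homer3* overlaps *Ddx49*. *Homer1* was at 8.22, 7.60 and 8.53 FPKM in Ctrl, 8.96, 8.33 and 7.17 in *F*-cKO and 6.39, 6.20 and 6.03 in *M*-cKO. Here *M*-cKO was below all other libraries (-0.40 ± 0.06, adjusted *p* = 0.00101).

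The direct comparison of the knockouts, which asks whether loss of the writer and loss of the eraser differ, called 21 members. Of the 43 tested, 13 were higher in *M*-cKO (30.2%, compared with 13.1% of 16802 genes) and 8 were lower (18.6%, compared with 14.3%). The median of the members was 0.07, beside -0.004 over all genes. Receptors made up 8 of the 13 and 3 of the 8. Of the calls, 12 held in all 11 alternatives and the other 9 were lost in 1 to 7. Those that held were *Gria2*, *Gria3*, *Grik2*, *Neto2*, *Cnih3* and *Homer1* on the lower side, and *Grik4*, *Grik5*, *Grin2d*, *Cacng2*, *Cacng4* and *Dlgap3* on the higher side. The higher count was 8 (18.6%) without *M*-cKO replicate 1 or replicate 2, where 10.2% and 9.17% of all genes were higher. Interneuron and ganglionic eminence markers were higher in *M*-cKO than in *F*-cKO for 8 of 9 genes (median 0.68), as were 3 of 5 meningeal genes (1.54), 3 of 4 erythroid genes (0.52) and 2 of 4 oligodendrocyte precursor genes (0.61). Radial glia markers were lower for 4 of 8 and higher for 1 (-0.26), pan-neuronal ones lower for 5 of 12 and higher for 2 (0.07), and excitatory cortical ones lower for 3 of 9 and higher for 2 (-0.12). Intermediate progenitor markers were lower for 2 of 5 (-0.22), striatal ones for 2 of 8 (0.38) and thalamic ones for 1 of 3 (-0.19), while endothelial ones were higher for 1 of 4 (0.17). The part of other cells in these differences was not tested.

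**Figure D3:**
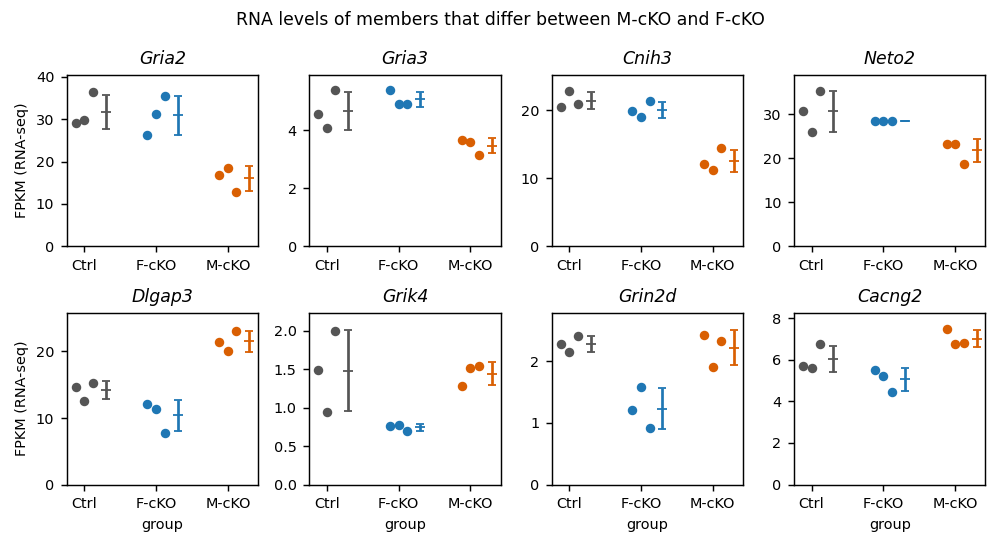
RNA-seq FPKM of 8 members called between *M*-cKO and *F*-cKO, with 1 point per library and the mean ± SD beside each group. *Gria2*, *Gria3*, *Cnih3* and *Neto2* are lowest in *M*-cKO with *F*-cKO near Ctrl, *Grik4* and *Grin2d* are lowest in *F*-cKO with *M*-cKO near Ctrl, and the means of *Dlgap3* and *Cacng2* are highest in *M*-cKO and lowest in *F*-cKO.

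The member loci are long. Their median length in RefSeq is 123 kb, and 27 of 45 (60.0%) reach 100 kb, compared with a median of 22.0 kb and 14.2% among the genes tested in *M*-cKO. In *F*-cKO, of all tested genes of 100 kb and over, 22.1% rose and 10.3% fell, while 2 and 10 of the 27 long members did (7.41% and 37.0%). In *M*-cKO the shares were 17.9% and 20.7% of all long genes, and 2 and 13 of the 27 long members (7.41% and 48.1%). Of the 15 members between 10 and 100 kb, 7 fell and 1 rose in *F*-cKO (46.7% and 6.67%, compared with 9.08% and 13.6% of all genes of that length), and 5 fell and 3 rose in *M*-cKO (33.3% and 20.0%, compared with 14.7% and 16.1%).

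Other genes of the pathway were counted in the same way. Of 54 tested from a list of 56 further receptor genes, partners and synaptic organisers, 12 fell and 5 rose in *F*-cKO (22.2% and 9.26%, compared with 9.57% and 11.5% of all genes), and 12 fell and 13 rose in *M*-cKO (22.2% and 24.1%, compared with 14.1% and 15.5%). *Camk2b*, a kinase of the postsynaptic density, fell in both (-0.90 ± 0.13 and -0.87 ± 0.11), as did *Grip2*, which binds AMPA receptor tails. *Arc*, an activity-induced regulator of AMPA receptor removal, rose in both (0.96 ± 0.20 and 0.82 ± 0.20). *Lrfn1* and *Lrfn4*, synaptic adhesion genes, fell in *F*-cKO and rose in *M*-cKO. Between the knockouts 14 of the 54 were higher in *M*-cKO and 5 lower (25.9% and 9.26%, compared with 13.1% and 14.3% of all genes).

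Ribo-seq, which counts ribosome-protected fragments and is given as RPKM (reads per kilobase, scaled to library depth), was used to ask whether the RNA changes reached translation. In Ctrl the ratio of mean RPKM to mean FPKM had a median of 0.314 over the 21 receptors, 0.250 over 8 auxiliary subunits and 0.512 over the 14 scaffolds, beside 0.757 over 12948 genes at 1 FPKM or more. It ran from 0.0985 for *Grik5* to 2.38 for *Grm3* among receptors, and from 0.138 for *Dlgap3* to 1.83 for *Dlg2* among scaffolds. The study's methods name the transcript as the length in RPKM, without saying which transcript or part of it. The length that entered FPKM is not given in the sources used here. The ratio is therefore a description and is not on a scale shared by all genes.

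In *M*-cKO 1 of the 45 members rose in footprints (2.22%, compared with 7.13% of 14314 genes) and 3 fell (6.67%, compared with 7.5%). The 3 that fell had also lost RNA. *Dlg2* footprints were at 18.3, 17.2 and 19.3 RPKM in Ctrl and 7.39, 7.46 and 10.6 in *M*-cKO, and those of *Cnih3* at 5.51, 6.11 and 5.76 against 2.80, 2.66 and 3.70. *M*-cKO lay far below Ctrl for both, by -1.10 ± 0.14 (adjusted *p* = 0.00827) and -0.91 ± 0.16 (adjusted *p* = 0.0163). *Dlgap1* went from 5.57, 4.55 and 4.86 to 2.91, 3.28 and 4.09 RPKM (-0.53 ± 0.15, adjusted *p* = 0.0492). *Grin3a* was the one that rose, from 0.526, 0.401 and 0.364 to 0.757, 0.724 and 0.777 RPKM (0.81 ± 0.19, adjusted *p* = 0.0337), without overlap. The call on *Dlg2* was lost in 1 of 12 alternatives, the fit over all 9 libraries, and the others in 5 to 8. That fit called none of the 45 (0.202% higher and 0.0419% lower of all genes). With protein-coding genes alone 7 members rose (15.6%, compared with 9.24% of 12606 genes), and with DESeq2 6 did (13.3%, compared with 11.2%). Leaving out single libraries gave 0 to 2 that rose and 1 to 4 that fell, with 1 that fell without *M*-cKO replicate 1 or any Ctrl library. In the same fits 0.804% to 9.09% of all genes rose and 0.433% to 8.67% fell. Interneuron and ganglionic eminence markers rose in footprints for 5 of 9 genes (median 1.24), with sums of 187 to 276 RPKM in *M*-cKO and 73.7 to 134 in Ctrl, and in TE for 0 of 9 (median 0.46). Radial glia sums were 1040 to 1480 RPKM compared with 1910 to 2160, and the part of other cells was not tested.

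*Gria2* footprints did not follow its RNA in *M*-cKO. They were at 5.07, 7.24 and 6.44 RPKM in Ctrl and 5.97, 6.51 and 5.11 in *M*-cKO, which overlap (-0.07 ± 0.16, adjusted *p* = 0.773). Translation efficiency (TE) was tested as the interaction of assay and genotype over 12 libraries. It was called higher for 5 of the 43 members (11.6%, compared with 1.89% of 13208 genes) and lower for 0 (compared with 1.18%). At an unadjusted p under 0.05 in edgeR, 13 members were higher and 0 lower, where 1624 of all genes were higher and 1217 lower. DESeq2 called 0 members lower (3.69% of all genes). Members had a median TE change of 0.25, beside 0.019 over all genes, and 35 of 43 were above 0. *Gria2* had the largest of the 5 (0.99 ± 0.23, adjusted *p* = 0.0331), and its ratio of RPKM to FPKM went from 0.197 to 0.366. *Gria1* had footprints of 5.89, 6.06 and 7.02 RPKM in Ctrl and 7.61, 8.90 and 9.08 in *M*-cKO, without overlap, on RNA that did not differ (TE 0.55 ± 0.13, adjusted *p* = 0.0454). *Shank1* (5.64, 5.31 and 5.40 against 5.50, 7.20 and 6.62 RPKM) and *Shank2* (4.62, 4.63 and 5.39 against 5.33, 5.88 and 5.55) kept footprints that overlapped Ctrl on lowered RNA. Their TE changes were 0.69 ± 0.15 (adjusted *p* = 0.0327) and 0.80 ± 0.14 (adjusted *p* = 0.0141). *Dlgap4*, at 21.2, 19.6 and 24.0 RPKM in Ctrl and 25.2, 22.6 and 25.4 in *M*-cKO, was the fifth (0.46 ± 0.11, adjusted *p* = 0.0445). These calls depended on single libraries, and at most 3 members passed when a numbered RNA-seq and Ribo-seq library of 1 group were left out. None passed without *M*-cKO replicate 2, Ctrl replicate 1 or Ctrl replicate 2, where 0.452%, 0.159% and 0.0453% of all genes were higher. Without Ctrl replicate 3 there was 1 (0.702% of all genes), and there were 3 without *M*-cKO replicate 1 (0.595%) or replicate 3 (2.4%).

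**Figure D4:**
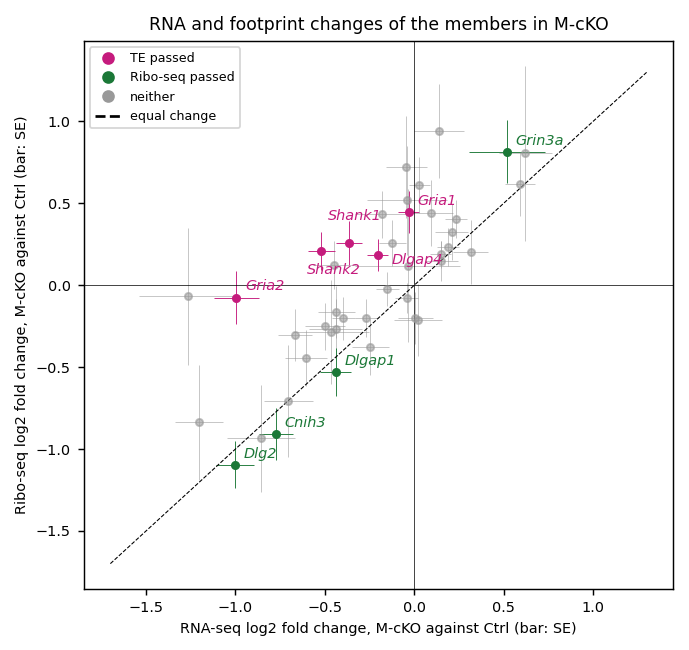
Log2 fold change of Ribo-seq against that of RNA-seq in *M*-cKO for the 43 tested members, with bars for the standard error and a dashed line where both are equal. *Dlg2*, *Cnih3*, *Dlgap1* and *Grin3a* (green, passed in Ribo-seq) lie near the line, whereas *Gria2*, *Gria1*, *Shank1*, *Shank2* and *Dlgap4* (magenta, passed in TE) lie above it.

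In *F*-cKO none of the 45 members passed in Ribo-seq (0% higher and 0% lower of all 14335 genes) and none of 43 in TE (0% and 0% of 13225 genes), and 0 passed in DESeq2 in either. In edgeR an unadjusted p under 0.05 was found for 0 members in Ribo-seq, where 227 of all genes were higher and 91 lower. In TE it was found for 4 members, all 4 higher, where 411 of all genes were higher and 817 lower. The median TE change was 0.52, beside -0.011 over all genes, and 39 of 43 were above 0. Without replicate 2 of *F*-cKO in both assays they were 0.20 and 31 of 43. *F*-cKO replicate 2, the library with the fewest fragments (10973699), stood apart from the other 8. Its receptors had a median ratio of 2.44 to the Ctrl mean, with 18 of 21 above every Ctrl library, as were 3443 of all 11980 genes. *F*-cKO replicate 1 lay the other way, with a receptor median ratio of 0.664 and 15 of 21 below every Ctrl library, as were 3692 of all genes. *Gria2* was at 33.9 RPKM in replicate 2, compared with 5.07 to 7.66 in the 8 other libraries, *Gria1* at 24.7 compared with 5.80 to 9.08, and *Grik3* at 15.5 compared with 3.46 to 5.05. Auxiliary subunits had a median ratio of 1.46 and scaffolds of 1.10, and all genes of 0.805. The scaffolds went both ways there, with 8 of 14 above every Ctrl library and 5 below. Of all 11980 genes, 3443 were above and 6990 below. *Dlg1* (12.9 RPKM), *Dlgap2* (4.29), *Dlgap4* (25.6), *Shank2* (6.42), *Homer2* (1.525) and *Homer3* (8.80) had their highest value of the 9 libraries. *Dlg2* was at its lowest, 5.90 RPKM compared with 7.39 to 19.9 elsewhere, as were *Dlg3* (15.8 compared with 22.3 to 29.7), *Dlgap1* (2.54 compared with 2.91 to 5.57) and *Dlgap3* (1.317 compared with 1.436 to 3.245). RNA of the same members in *F*-cKO replicate 2 gave a receptor median of 0.811. Over the 3 *F*-cKO libraries, summed endothelial markers had a median of 6.51 and a highest value of 80.4 RPKM, against 4.90 to 8.07 in Ctrl. Microglial ones had a median of 5.08 and a highest value of 11.9, against 4.67 to 4.86. Meningeal ones had a median of 19.3 and a highest value of 43.1, against 11.9 to 23.2. Pan-neuronal sums had a median of 3820 and a lowest value of 1750 RPKM, against 3800 to 4460 in Ctrl. Excitatory cortical ones had a median of 897 and a lowest value of 605, against 929 to 1060. The part of other cells was not tested. Without *F*-cKO replicate 2 *Gria2* footprints differed by 0.12 ± 0.17 in place of 1.48 ± 0.71, *Gria1* by -0.002 ± 0.16 in place of 1.10 ± 0.61, and *Dlg2* by -0.28 ± 0.26 in place of -0.57 ± 0.38, and again no member passed.

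**Figure D5:**
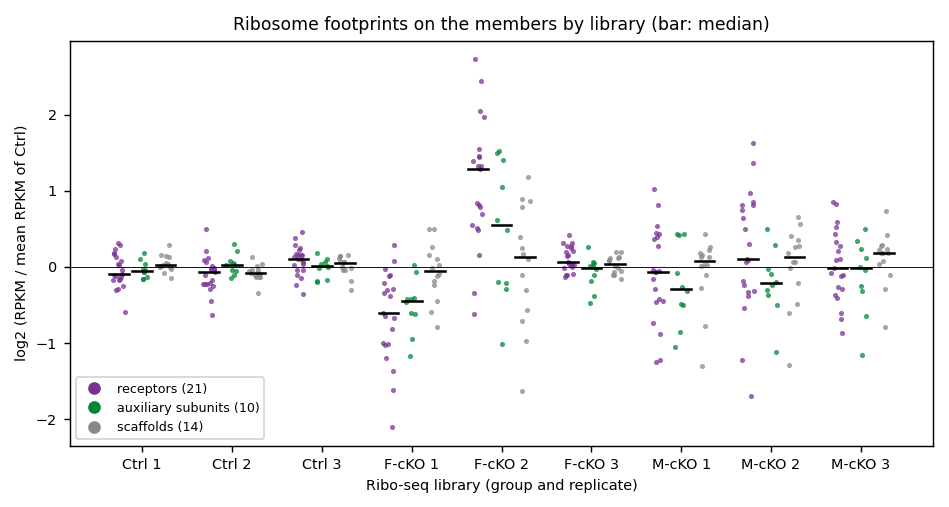
Ribo-seq RPKM of the 45 members in each of 9 libraries as log2 of the ratio to the Ctrl mean, with 1 point per gene, colours for the 3 classes and bars for class medians. In *F*-cKO replicate 2 the receptors sit at a median of 1.29 and the scaffolds at 0.13, while in *F*-cKO replicate 1 the receptors sit at -0.59 and the scaffolds at -0.05.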

How the data were processed

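Cortices at E15.5 gave 3 libraries for each of 3 groups in both assays, RNA-seq on total RNA and Ribo-seq on fragments left by RNase I. The authors aligned RNA-seq reads with HISAT2 2.0.5 and deposited read counts and FPKM per gene. For Ribo-seq, the authors mapped fragments with TopHat2, and the deposited counts per gene come from HTSeq. The RPKM values were deposited by the authors and used as given. The submitters' processing notes name mm10 and DESeq2 1.14.1. Whether counting used strand, which length entered FPKM, and which transcript or part of it gave the length in RPKM are not given in the sources used here. Columns with the authors' own comparisons were not used. Of 54838 Ribo-seq genes, 40490 with blank cells were left out, none of them a member.

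Counts were fitted with edgeR 4.0.16 in R 4.3.3 (TMM, filterByExpr with minimum count 10 and minimum total count 15, quasi-likelihood test), each comparison over its own 6 libraries and TE over 12 as the interaction of assay and genotype. RiboDiff, the study's tool for TE, was not run. SE values were derived from the fold change and its F statistic. DESeq2 1.42.0, RLE scaling, no filter, a replicate block, all 9 libraries, protein-coding genes alone, a fold limit and each library left out were the alternatives. The fold limit is not among the alternatives counted beside a call. The fits were also run on simulated counts with set fold changes, and the outcome is not given here. Replicates are labelled biological repeats, and the study's methods can be read as placing the Ribo-seq samples in 1 litter, so *p*-values measure only the spread between these samples.

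The members and the lists were chosen with earlier results of these data known. All members may be named, and values of every library are given for the highest Ctrl member of each role group, the 3 smallest adjusted p in each direction of each RNA-seq comparison, and up to 6 in each direction between the knockouts and in Ribo-seq and TE of *M*-cKO. *Camk2b*, *Grip2*, *Arc*, *Lrfn1* and *Lrfn4* were named after their values were seen. Markers of radial glia, intermediate progenitors, striatal neurons, Cajal-Retzius cells, microglia, erythroid cells, meninges and thalamus were also summed. Sequences and coordinates are from RefSeq (GRCm38.p6). A planned look at protein ends was not run.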

Additional observations from a re-analysis of the deposited data

How the results depend on the processing

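None of the 75 member calls changed sign under any alternative. Leaving the fold limit aside, these calls held 674 times and were lost 150 times, 125 of them with a library left out. On the same count, calls held in all alternatives for 6 of 21 in RNA-seq of *F*-cKO, 18 of 24 in RNA-seq of *M*-cKO, 12 of 21 between the knockouts, and 0 of 4 and 0 of 5 in Ribo-seq and TE of *M*-cKO. Leaving out 1 library gave 1 to 4 members higher and 6 to 19 lower in RNA-seq of *F*-cKO, 2 to 6 higher and 16 to 20 lower in *M*-cKO, and 8 to 13 higher and 7 to 12 lower between them. For Ribo-seq of *M*-cKO, leaving out 1 library gave 0 to 2 members higher and 1 to 4 lower (0.804% to 9.09% and 0.433% to 8.67% of all genes). For TE of *M*-cKO it gave 0 to 3 higher (0.0453% to 2.4%). A limit of 0.5 on the log2 change left 0 higher and 9 lower in *F*-cKO (3.91% and 4.64% of all genes) and 2 higher and 11 lower in *M*-cKO (6.72% and 6.52%). In Ribo-seq of *M*-cKO the 1 member called higher (7.13% of all genes) became 6 with DESeq2 (11.2%) and 3 with RLE (7.36%). The count was 7 among protein-coding genes (9.24%) and 0 with all 9 libraries (0.202%). The 3 lower (7.5% of all genes) became 0 with all 9 (0.0419%). The fit over all 9 libraries includes *F*-cKO replicate 2. TE of *M*-cKO gave 3 higher with RLE and 3 without a filter, in place of 5 (1.55% and 1.53% of all genes, in place of 1.89%). The cause was not tested.

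A replicate block left 0 higher in Ribo-seq of *M*-cKO in place of 1, where the share of all genes went from 7.13% to 4.76%. In RNA-seq of *F*-cKO it left 3 higher and 12 lower in place of 3 and 18. There the shares of all genes went from 11.5% to 7.52% higher and from 9.57% to 5.05% lower. It took 12 of the 75 calls. Deviations from the group means were correlated between Ctrl and each knockout within an assay. Same-numbered libraries gave -0.278 to 0.163 and differently numbered ones -0.319 to 0.415. With 3 libraries per group these values cannot decide whether the numbers pair the samples. *M*-cKO was not compared with *F*-cKO in this way, nor RNA-seq with Ribo-seq.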

Other observations

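*Cacng7* and *Cacng8* lie side by side on chromosome 7 (3332027 to 3416266, GRCm38.p6) and were both listed at or near 0 in RNA-seq. Nearby, *Myadm* had at most 1 RNA-seq read in any library beside 37 to 211 footprints, while *Ndufa3* and *Tfpt*, farther along, had 1139 to 1520 and 408 to 531 reads. Of 8257 protein-coding genes with at least 100 footprints in every Ribo-seq library, 50 (0.606%) had no more than 3 reads in any RNA-seq library. *Ranbp1*, *Sf1* and *Celf1*, which most cells use, were among the 50, so a listed 0 in the RNA-seq table does not show that the RNA was absent. These genes were chosen after their values were seen.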
